A study of Mus musculus with 48 samples.

Results

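The cytosolic heat shock system was followed through 10 genes across 47 RNA-seq libraries of the mouse medial prefrontal cortex, 10 symbols of the 24062 in the count tables. They were Hsp90aa1, Hsp90ab1, Hspa1a, Hspa1b, Hspa8, Hsph1, Dnaja1, Dnajb1, Bag3 and Hspb1. The genes were chosen by symbol, with earlier results of these data known, and all 10 had counts in every library. All mice were C57BL/6; the sources used here give neither age nor sex. In the drinking cohort, ethanol mice had free access to 15% (v/v) ethanol on alternate days over 60 days, with water alone on the days between, and were killed as soon as the bottles came off. Water mice had water over the same 60 days. Each cortex was split: 1% of the minced tissue was kept as total homogenate, holding all cell types, and microglia were taken from the remainder by dissociation, a Percoll step against myelin and Cd11b beads. Counts were available for 10 ethanol and 9 water homogenates and for 10 ethanol and 8 water microglial libraries. In a second cohort, 5 mice received lipopolysaccharide (LPS, a bacterial cell wall component that provokes inflammation) at 1.5 mg/kg into the peritoneum and 5 received saline, and microglia were isolated 1 week later; no homogenate of these mice was analysed here. Cd11b is carried by other myeloid cells too, so the bead step does not select microglia alone.

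Chaperones bind unfolded or partly folded proteins and help them fold, move or be degraded. Proteotoxic stress frees the transcription factor HSF1, which binds heat shock elements in DNA, repeated units of the bases GAA in alternating orientation, and drives a rapid rise of inducible chaperones, above all the intronless Hsp70 genes Hspa1a and Hspa1b. Hspa8 (Hsc70) and Hsp90ab1 (Hsp90 beta) are the abundant forms made without stress. In brain tissue, inducible Hsp70 is scarce in unstressed neurons, while glial and vascular cells can raise it.

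The marker genes went with the labelled preparations. The summed CPM (counts per 1000000 reads assigned to genes) of 7 microglial markers lay between 23207 and 32526 in microglial libraries and between 458 and 597 in homogenates, and that of 8 neuronal markers between 11.3 and 96.7 against 5681 to 8057; no marker on either list was at 0 in all libraries of a group. Assigned reads ranged from 9.72 to 67.5 M (units of 1000000 reads) per library. Position numbers attached to the deposited tables fall into 3 sets, which were tried as a possible batch. In the water group 2 microglial libraries stood apart: that of mouse 19, with a summed CPM of 15672 for 8 neutrophil markers against 41.5 to 682 in the other microglial libraries, and that of mouse 24, with the lowest depth and 56.1% of reads outside annotated genes. The library of mouse 19 also had a summed CPM of 1296 for 5 monocyte markers, against 9.56 to 59.3 in the other microglial libraries. The bulk libraries cannot separate fewer cells of a type from less RNA per cell.

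The upstream sequences of the inducible Hsp70 pair and of the small heat shock gene Hspb1 are shown first, because the pair differed most between the preparations and all 3 hold paired heat shock units. The RefSeq promoter table (GRCm38.p6) held 7 of the 10 genes, and the 250 bases before each transcript start were searched on both strands for a head-to-head pair of units, GAANNTTC, and a tail-to-tail pair, TTCNNGAA. Each motif is its own reverse complement, and a unit of one can also be part of the other. Capitals mark the head-to-head pairs.

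Hspa1a: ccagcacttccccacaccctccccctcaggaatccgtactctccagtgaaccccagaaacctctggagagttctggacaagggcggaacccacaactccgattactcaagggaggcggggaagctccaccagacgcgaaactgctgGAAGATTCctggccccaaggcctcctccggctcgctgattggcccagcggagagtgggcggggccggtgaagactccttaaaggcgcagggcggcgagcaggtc

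Hspa1b: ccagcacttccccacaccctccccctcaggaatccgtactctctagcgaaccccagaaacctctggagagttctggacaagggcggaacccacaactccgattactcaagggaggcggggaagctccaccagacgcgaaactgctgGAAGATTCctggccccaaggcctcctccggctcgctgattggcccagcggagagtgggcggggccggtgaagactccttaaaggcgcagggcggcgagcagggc

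Hspb1: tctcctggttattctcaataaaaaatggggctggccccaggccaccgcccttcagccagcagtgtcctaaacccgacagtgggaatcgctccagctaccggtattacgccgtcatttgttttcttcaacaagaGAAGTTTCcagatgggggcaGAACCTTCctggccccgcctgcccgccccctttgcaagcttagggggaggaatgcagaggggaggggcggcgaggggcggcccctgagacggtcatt

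The Hspa1a window lies at chr17:34972157-34972406 on the minus strand, the Hspa1b window at chr17:34959239-34959488 on the minus strand, and the Hspb1 window at chr5:135887669-135887918 on the plus strand. Hspa1a and Hspa1b differed at 3 of 250 bases, with 1 head-to-head pair each, and Hspb1 held 2. Hsph1 carried 1 tail-to-tail pair in each of its 2 windows, Dnaja1 1 head-to-head pair in 1 of its 3 windows, and no window of Dnajb1 or Bag3 held either. Of the 11 windows of these 7 genes 6 held at least 1 pair, against 12.8% of 32851 promoter windows in the table (6.69% with GAANNTTC and 7.17% with TTCNNGAA). The 11 windows are not separate sequences. Among the 6 are the near-identical windows of Hspa1a and Hspa1b and the 2 overlapping windows of Hsph1, which hold the same pair. The 2 windows of Dnaja1 without a pair overlap as well. A match describes letters in these windows, not binding.

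Hspa1a (chromosome 17, 34969190 to 34972156) and Hspa1b (34956436 to 34959238, both minus strand) are single-exon neighbours that encode inducible Hsp70, and 75.45% of the 75-base windows in the Hspa1a coding sequence also occur in that of Hspa1b. Their individual counts are therefore uncertain, and their sum is given where it matters. Of their joint CPM, the share assigned to Hspa1a was 52.1% ± 5.3 in the 8 water microglial libraries and 46.1% ± 5.1 in the 9 water homogenates (mean ± SD). Hspa8, Hsp90aa1, Hspb1 and Dnaja1 share 62.4%, 45.5%, 46.4% and 24.6% of their 75-base transcript windows with other annotated genes, in each case most with a processed pseudogene. Hsp90ab1 shared 0.664%, and no window of Hsph1, Dnajb1 or Bag3 was shared.

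Isolated microglia and whole tissue differed most in the inducible Hsp70 pair. Hspa1a had 7.55, 9.40 and 14.7 CPM (lowest, median, highest) in the 9 water homogenates and 173, 780 and 1113 CPM in the 8 water microglial libraries. Hspa1b had 6.69, 12.7 and 18.7 CPM in the water homogenates and 98.6, 742 and 1230 CPM in the water microglia. Every microglial library lay above every homogenate for both genes. The log2 fold change of microglia over homogenate was 6.11 (SE 0.38) for Hspa1a and 5.82 (SE 0.46) for Hspa1b in water mice, with edgeR quasi-likelihood adjusted p of 4.16e-11 and 1.27e-09, and 5.96 (SE 0.42) for their summed counts. In ethanol mice, which share no library with the water mice, the values were 6.15 (SE 0.26) and 5.39 (SE 0.33), with adjusted p of 1.49e-15 and 1.16e-12.

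In water mice 7 of the 10 genes were higher in microglia and 1 was lower at an adjusted p under 0.05 (the rule for a call throughout), while 35.3% of 15057 genes were called higher and 49.1% lower. In ethanol mice 8 were higher and 0 lower, against 38.8% and 45.6% of 14637 genes. The median log2 fold change of the 10 was 0.88 in water mice and 1.37 in ethanol mice, beside -0.37 and -0.21 for all genes tested. RLE scaling in place of TMM moved the median of all genes by -0.22 in ethanol mice, so changes of that size there depend on the scaling.

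The cofactors of Hsp70 stood next in size. Bag3, a nucleotide exchange factor that hands Hsp70 clients to autophagy (chromosome 7, 128523616 to 128546981), had 10.2, 12.98 and 24.5 CPM in the water homogenates and 62.003, 97.6 and 124 CPM in the water microglia. Its log2 fold change was 2.76 (SE 0.17) in water and 3.59 (SE 0.19) in ethanol mice. Dnajb1 (Hsp40, chromosome 8), a J-domain protein that loads clients on Hsp70 and starts its ATP cycle, had a median of 61.2 CPM in the water homogenates and 327 CPM in the water microglia, with a log2 fold change of 2.40 (SE 0.12) in water and 3.003 (SE 0.13) in ethanol mice. For both genes every microglial library lay above every homogenate, in water and in ethanol mice. Dnaja1 (chromosome 4), the other J-domain cofactor of the group, was higher in microglia by 0.77 (SE 0.14) in water and 1.35 (SE 0.12) in ethanol mice on the log2 scale, and its ranges overlapped in the water mice.

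The abundant chaperones differed less. Hspa8, the constitutive Hsp70 (chromosome 9), had 1013, 1085 and 1155 CPM in the water homogenates and 1218, 2189 and 2595 CPM in the water microglia, a log2 fold change of 0.99 (SE 0.10), and 1.40 (SE 0.08) in ethanol mice. Hsp90ab1 (chromosome 17) was higher by 0.41 (SE 0.10) and 0.67 (SE 0.08), with overlapping ranges; among the water mice of the second set of library position numbers alone it was not called (0.35, edgeR adjusted p 0.116). Hsp90aa1, the stress-responsive Hsp90 alpha (chromosome 12), was called in ethanol mice only: 0.11 (SE 0.12, edgeR adjusted p 0.376) in water and 0.51 (SE 0.10, edgeR adjusted p 0.00012) in ethanol mice. A call in one treatment only does not show a difference between them: the interaction of treatment and preparation, from a separate joint fit over all 37 libraries of the drinking cohort, was 0.26 (SE 0.15, edgeR adjusted p 0.534). Without the microglia of water mice 19 and 24, Hsp90aa1 was called higher in water mice too, at 0.40 (edgeR adjusted p 0.000994), and at 0.31 without mouse 19 alone (adjusted p 0.0267). Such shifts were not particular to Hsp90aa1. Over the fits of water mice that each left out a library, Hspa8 reached 1.18, Hsp90ab1 0.60 and Dnajb1 2.61. The part of scaling in these shifts from left-out libraries, and in such shifts of Hsph1 and Hspb1 below, was not tested.

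Hsph1 (Hsp110, chromosome 5), an exchange factor and disaggregase partner of Hsp70, was the only gene of the 10 with microglial estimates below its homogenate level in the drinking cohort. Saline microglia of the second cohort had a mean of 291 CPM. It had 269, 297 and 311 CPM in the water homogenates and 56.9, 200 and 285 CPM in the water microglia. The log2 fold change was -0.72 (SE 0.24, edgeR adjusted p 0.00929), and the edgeR call was lost without the microglia of water mice 19 and 24 (-0.33, adjusted p 0.117), without mouse 19 alone (-0.48, adjusted p 0.0758), and within the second set of position numbers (-0.52, adjusted p 0.269). In ethanol mice it was -0.51 (SE 0.26, edgeR adjusted p 0.0749), and -0.73 with mouse as a block (adjusted p 0.0247). It was also called lower in ethanol mice with RLE scaling, DESeq2, voom and the share of reads outside genes as a covariate. So it was in the second set alone and without ethanol microglia 3 or 13. These estimates lay between -0.54 and -0.82. RLE scaling gave -0.73 for Hsph1, and it moved the median of all genes in ethanol mice by -0.22 as well. Hspb1, the small heat shock protein Hsp27 that holds unfolded proteins without ATP (chromosome 5, 135887919 to 135889563), was low in both preparations, with 5.92, 7.58 and 30.2 CPM in water homogenates and 4.56, 16.6 and 22.1 CPM in water microglia. Its log2 fold changes were 0.60 (SE 0.37) and 0.50 (SE 0.31), neither called; without the water homogenate of mouse 25 the first was 0.99 (edgeR adjusted p 0.00582), without water microglia 19 it was called at 0.88, and without ethanol microglia 5 the second was called at 0.61.

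**Figure D1:**
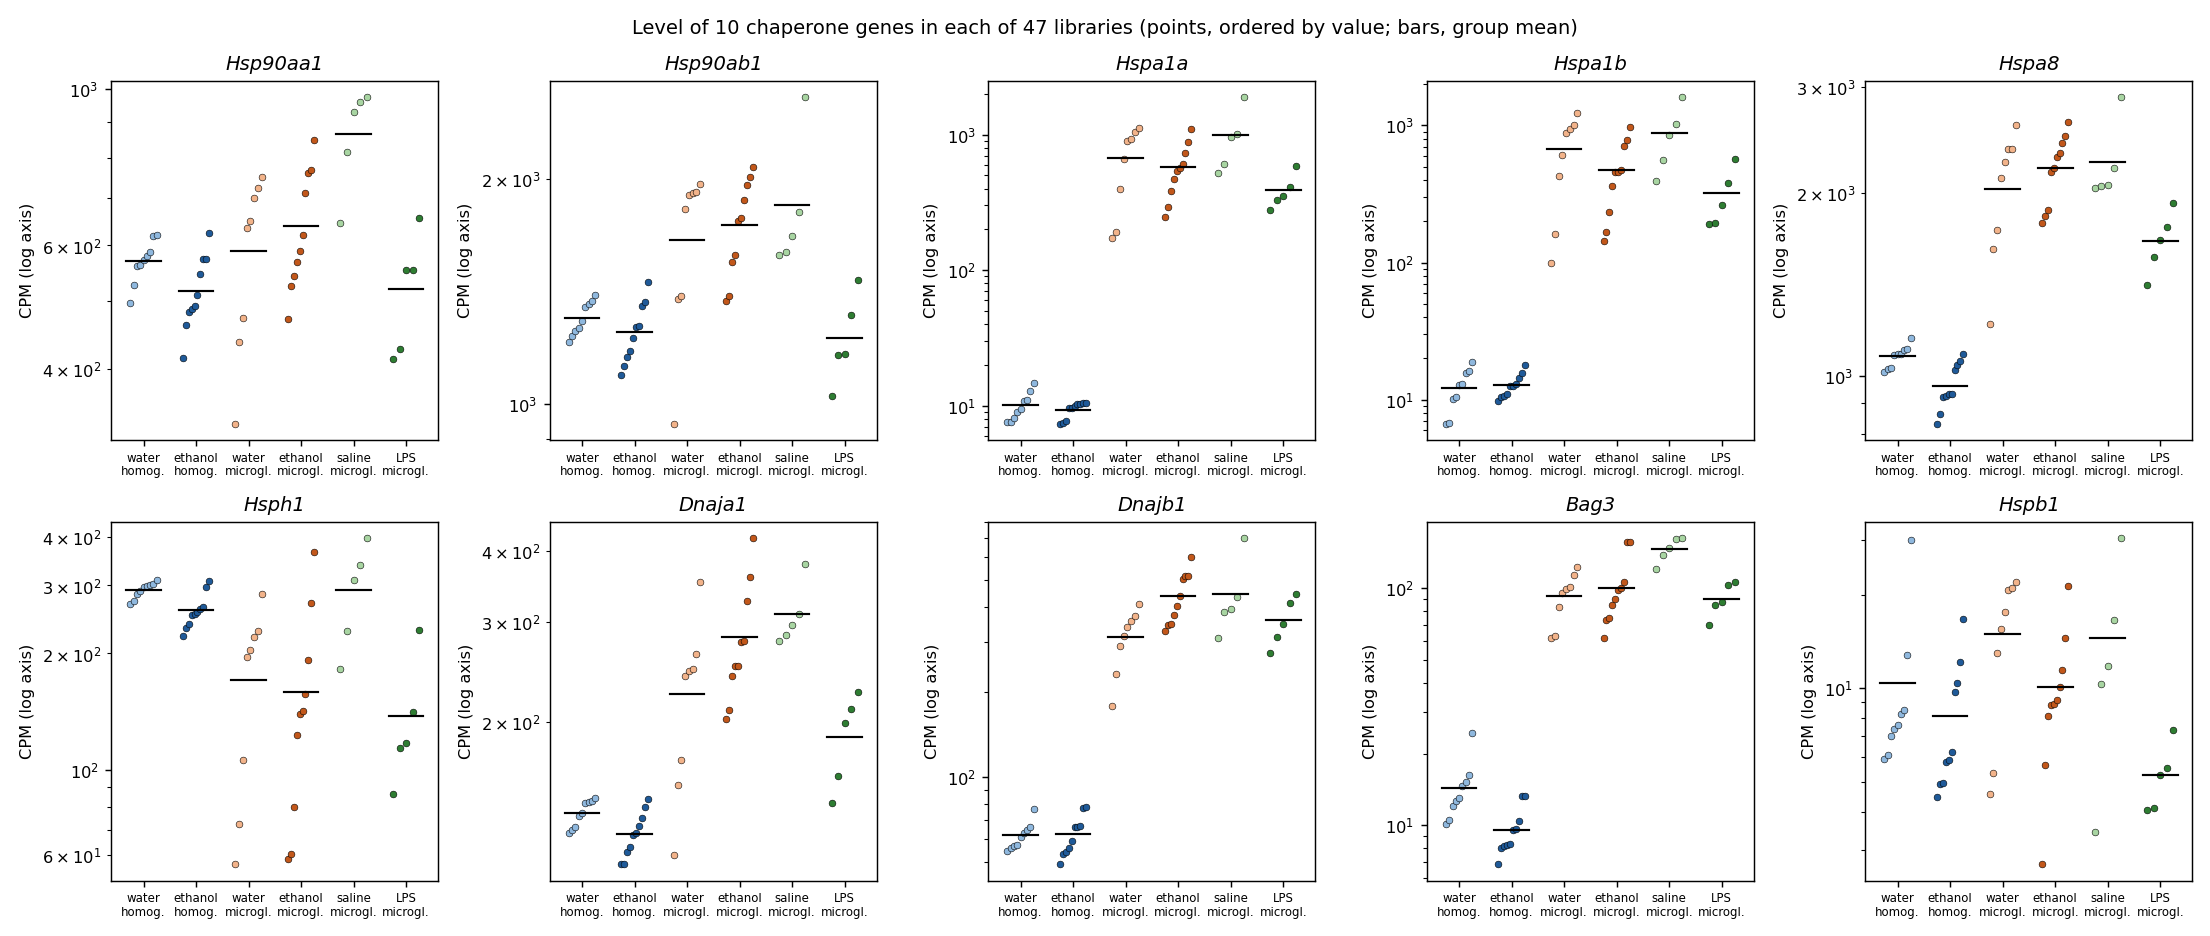
CPM (log axis) of each of the 10 genes in each library, by group; points are libraries ordered by value and bars are group means. The Hspa1a and Hspa1b panels show homogenates between 6.69 and 18.7 CPM and microglia between 98.6 and 1881 CPM, while in the Hsph1 panel the water and ethanol microglial means (171 and 159 CPM) lie below those of the homogenates (292 and 258 CPM). The saline and LPS microglial means of Hsph1 are 291 and 138 CPM.

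The rank order of levels per kilobase of exon changed between the preparations. Neither these levels nor the ratios below were corrected for 75-base windows shared with other genes (62.4% in Hspa8, 0.664% in Hsp90ab1). The order between genes is therefore approximate. In water homogenate Hsp90ab1 (517 ± 27.0 CPM per kb, SD, n = 9) and Hspa8 (449 ± 19.2) led, followed by Hsp90aa1 (168 ± 11.7) and Hsph1 (69.2 ± 3.3), and Bag3 (5.59 ± 1.69), Hspa1b (4.37 ± 1.49) and Hspa1a (3.41 ± 0.84) were the lowest, the neighbours among them within an SD of each other. In water microglia Hspa8 (850 ± 194, SD, n = 8) and Hsp90ab1 (657 ± 148) led, then Hspa1b (239 ± 147), Hspa1a (228 ± 128) and Hsp90aa1 (174 ± 45.3), whose ranges overlapped. Dnajb1 followed at 97.3 ± 23.9, then Hsph1 (40.5 ± 19.5), Dnaja1 (38.8 ± 12.9) and Bag3 (36.2 ± 8.6), within each other's SD, and Hspb1 was lowest at 14.5 ± 6.7.

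Ratios taken within a library remove its total from the comparison. The ratio of inducible to constitutive Hsp70, (Hspa1a + Hspa1b) over Hspa8 in CPM per kb, was 0.0174 ± 0.0052 (SD, n = 9) in water homogenate and 0.511 ± 0.247 (SD, n = 8) in water microglia, and 0.0193 ± 0.0025 and 0.380 ± 0.152 (SD, n = 10 each) in ethanol mice. The difference was 4.73 on the log2 scale in water mice and 4.20 in ethanol mice. Exact two-sided permutation tests over unpaired libraries gave p = 4.11e-05 and 1.08e-05, the smallest such unpaired tests can give here. Adjusted p was 0.000206 and 0.000108 over 10 ratio tests. The ratio tests between preparations, those of Hsp90 below included, did not use the pairing of libraries by mouse. In the drinking cohort the ratio of Hsp90 alpha to beta ran the other way: 0.326 ± 0.021 in water homogenate and 0.264 ± 0.019 in water microglia, a log2 difference of -0.31 (exact permutation, adjusted p 0.000411), and -0.17 in ethanol mice (adjusted p 0.0072). Microglia of the second cohort did not share this low ratio. Their means were 0.356 ± 0.063 after saline and 0.3155 ± 0.0335 after LPS (SD, n = 5 each), without a test between cohorts.

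**Figure D2:**
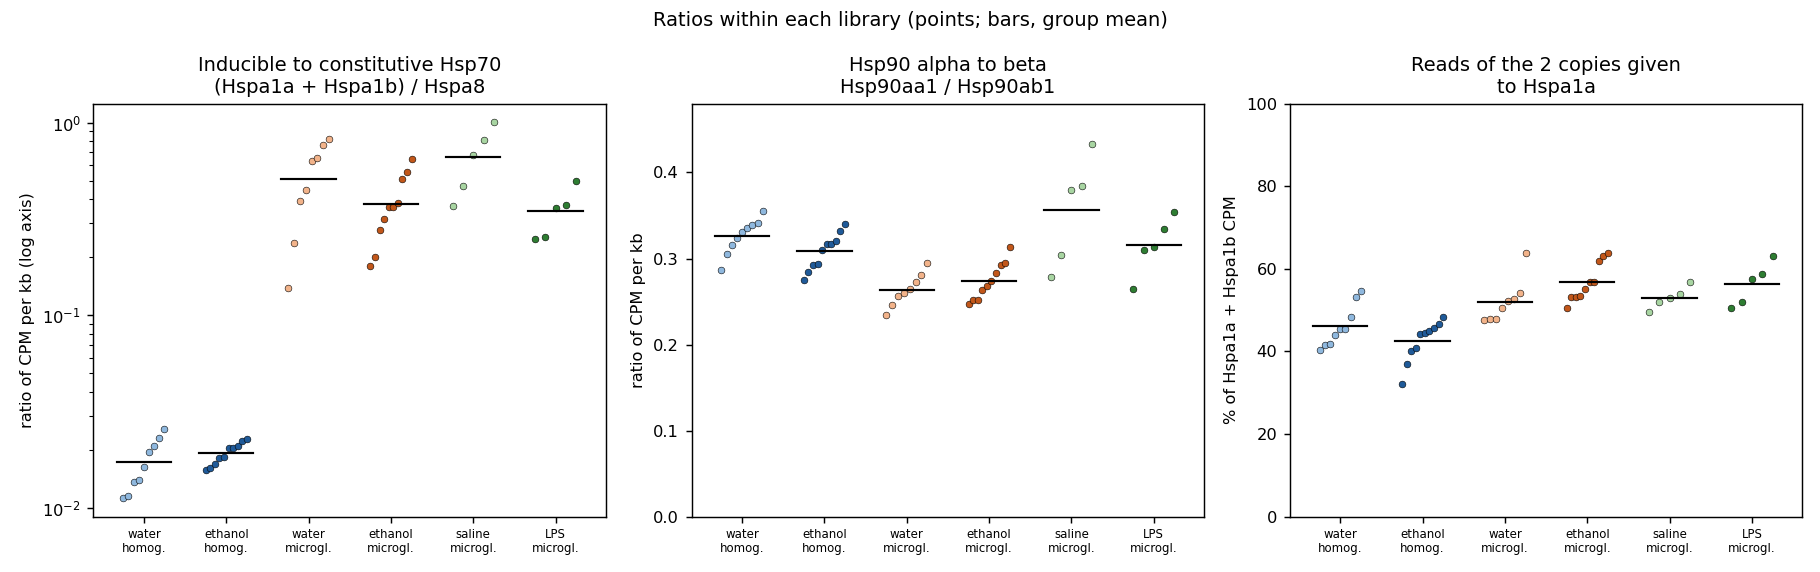
Within-library quantities by group, points for libraries and bars for group means: the inducible to constitutive Hsp70 ratio (log axis), the Hsp90 alpha to beta ratio, and the share of the Hspa1a plus Hspa1b CPM given to Hspa1a in percent. The Hsp70 ratio is at most 0.0258 in the homogenates and from 0.139 to 1.00 in microglia, and the third panel stays between 32.1% and 63.9%.

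Other chaperone families were compared from lists of named genes. Chaperones of the endoplasmic reticulum were higher in microglia, 9 of 10 in water mice and 9 of 10 in ethanol mice; Hspa5 (BiP) was higher by 2.99 and 3.26 and Hsp90b1 (Grp94) by 1.62 and 1.71 on the log2 scale. The rest of the Hsp70 and Hsp110 proteins and their cochaperones were split, 11 of 16 lower and 5 higher in water mice, the lower ones including Hspa12a at -4.83 and Bag4 at -1.89; in ethanol mice 10 were lower and 5 higher, with Hspa2 at -2.07. Of 14 Hsp90 cochaperones 3 were higher and 6 lower in water mice, with Cdc37l1, a relative of the kinase cochaperone Cdc37, at -1.97 and Nudc at -1.05; in ethanol mice 5 were higher and 5 lower, with Fkbp5, an Hsp90 partner of steroid receptors, at 2.20. Among 12 other cytosolic J-domain proteins 4 were higher and 7 lower in water mice, with Dnajc13, an endosomal protein, at 1.38 and Dnajb5 at -2.15; in ethanol mice Dnajb4 was at 2.62 and Dnajc6, an uncoating cofactor of clathrin vesicles, at -6.35. Mitochondrial chaperones lay between -0.71 (Dnaja3) and 0.18 in water mice, with 3 of 7 lower, Hspa9 (mortalin) at -0.15 among them; in ethanol mice 3 were higher, with Hspd1 at 0.31, and 1 lower. The TRiC chaperonin subunits lay between -0.66 (Tcp1) and 0.57 (Cct4), 3 higher and 3 lower of 8 in water mice, and Cct2 was at 0.51 in ethanol mice. Of the other small heat shock proteins, Cryab and Hspb8 were lower in water mice at -3.20 and -3.77, the 2 calls among 5 tested. In ethanol mice both were lower (-1.999 and -3.48) and 1 of the 4 tested was higher, Hspb3 at 1.54, named after its value was seen. Among heat shock factors and regulators, Hsf1, named here as the gene of the factor itself, was higher in microglia by 0.79 (SE 0.09) and 0.60 (SE 0.11) in water and ethanol mice, Ier5, an immediate early gene product that promotes HSF1 activity, by 3.77 and 4.58, and Hsbp1, a binding protein of HSF1, was lower by -1.44 and -1.38.

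Immediate early genes, which are induced within minutes of stimulation, moved with the preparation. Their summed CPM over 20 genes was 1545 to 3763 in homogenates and 35572 to 58480 in microglial libraries. In water mice and again in ethanol mice 17 of 20 were called higher and 3 lower, with Jun at 7.10 and Klf6 at 4.95 on the log2 scale in water mice. Homogenate was frozen after mincing, whereas microglia passed dissociation, a gradient and bead capture, so cell type and handling cannot be told apart in any comparison of the preparations.

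**Figure D3:**
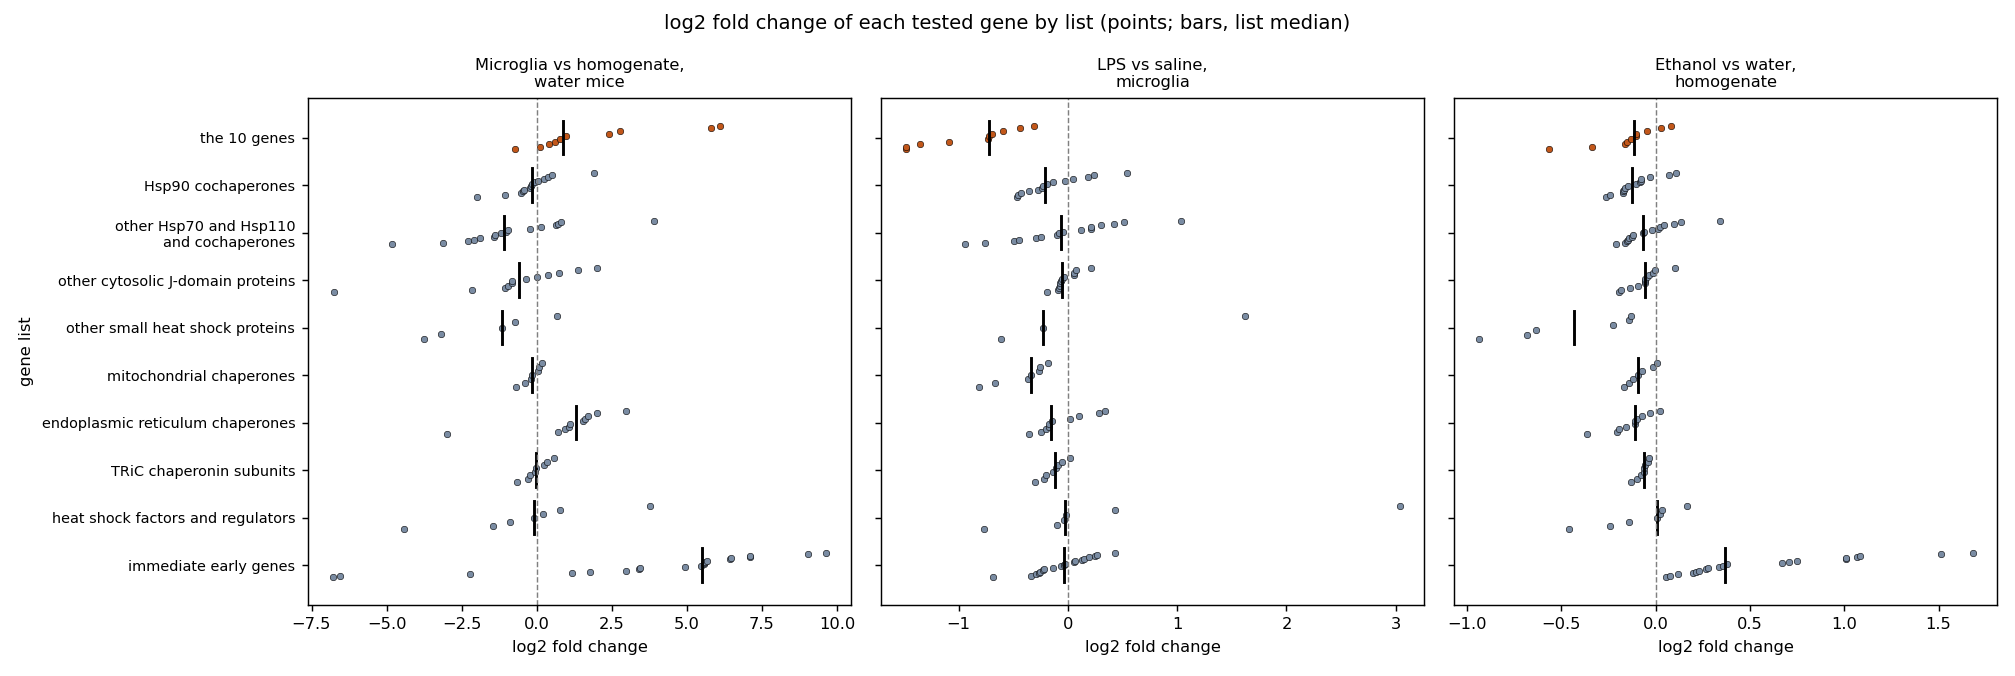
log2 fold change of every tested gene in 10 lists, points for genes and bars for list medians, in water mice (microglia over homogenate), after LPS, and after ethanol in homogenate; the horizontal scales differ. The 10 genes have medians of 0.88, -0.73 and -0.12, and the immediate early genes 5.52, -0.03 and 0.37.

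After LPS all 10 genes had lower estimates than after saline, none of which was called. The estimates ran from -0.32 (Dnajb1) to -1.48 (Hspa1b), with a median of -0.73 beside -0.0046 for all 12469 genes tested. All 10 stayed negative when 1 library at a time was left out, but their sizes depended on single libraries. Dnajb1 ran from -0.42 to -0.07 over these fits and Hsp90ab1 from -0.66 to -0.43. Hspa1a ran from -1.53 to -0.97 and Hspa1b from -1.79 to -1.13. By edgeR's adjusted p, 0 of 10 passed, as did 0.0160% of all genes (2 genes, both higher). At an unadjusted edgeR p under 0.05, 9 of 10 were lower, against 2.84% of all genes. The 10 genes varied together over the microglial libraries (median r 0.82, given below). Counts among them here and below are therefore not counts of independent results. The 10 genes were also chosen with earlier results of these data known, which limits any comparison of such counts with all genes. DESeq2 called 6 of the 10 lower (Hsp90aa1, Hsp90ab1, Hspa8, Hsph1, Dnaja1 and Bag3), as it did 0.177% of 16403 genes. Without the filter on low counts edgeR also called 6 lower (Hspa1a and Hspa1b in place of Hsp90ab1 and Hspa8), as it did 0.0468% of 17111 genes; 5 other alternatives and all 10 fits leaving out a library called 0.

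The inducible pair had the largest estimates. Hspa1b was at 1603, 1016, 850, 561 and 395 CPM in the saline libraries and at 572, 380, 262, 194 and 190 CPM in the LPS libraries. Hspa1a was at 1881, 1002, 954, 604 and 517 CPM after saline and at 581.5, 412, 353, 327 and 277 CPM after LPS. In both genes saline mouse 38 was the highest library and the lowest saline library, mouse 48, lay under the highest LPS library, mouse 44. The log2 fold changes were -1.48 (SE 0.33, edgeR adjusted p 0.183) for Hspa1b, -1.36 (SE 0.28, edgeR adjusted p 0.134) for Hspa1a and -1.42 (SE 0.30, edgeR adjusted p 0.156) for their sum.

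In 4 genes the groups did not overlap. Every LPS library was below every saline library for Hspa8, Hsp90ab1, Dnaja1 and Bag3, as for 0.674% of all genes tested. Bag3 was at 163, 162, 149, 139 and 121 CPM after saline and at 106, 103, 88.0, 85.3 and 70.1 CPM after LPS, a log2 fold change of -0.70 (SE 0.13, edgeR adjusted p 0.0882). Dnaja1 was at 380, 309, 296, 284 and 277 CPM after saline and at 225, 211, 199, 160.5 and 144 CPM after LPS, a log2 fold change of -0.72 (SE 0.14, edgeR adjusted p 0.0882). In both genes the lowest saline library lay above the highest LPS library. Hspa8 went from a mean of 2250 ± 359 to 1669 ± 195 CPM (SD, n = 5 each), -0.43 (SE 0.11), and Hsp90ab1 from 1846 ± 413 to 1227 ± 167 CPM, -0.59 (SE 0.13).

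Hsp90aa1 was at 974, 958.5, 930, 814 and 646 CPM after saline and at 656, 554, 554, 427 and 414 CPM after LPS, and only saline mouse 48 fell below an LPS library. Its log2 fold change of -0.73 (SE 0.14, edgeR adjusted p 0.0882) had the fifth smallest p of all genes tested. Hsph1 was at 398, 338, 310, 228 and 183 CPM after saline and at 230, 141, 118, 114 and 86.7 CPM after LPS, -1.09 (SE 0.23, edgeR adjusted p 0.159). Dnajb1 overlapped broadly, with 310 to 702 CPM after saline and 275 to 446 CPM after LPS and -0.32 (SE 0.19, edgeR adjusted p 0.944). Hspb1 was low throughout, with 3.44 to 30.5 CPM after saline and 4.05 to 7.35 CPM after LPS and -1.48 (SE 0.49, edgeR adjusted p 0.619).

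The inducible to constitutive Hsp70 ratio was 1.00, 0.814, 0.679, 0.467 and 0.370 in the saline libraries and 0.496, 0.373, 0.360, 0.255 and 0.248 in the LPS libraries. The log2 difference was -0.90 (exact two-sided permutation p = 0.0476 over 252 arrangements, adjusted p 0.0952), which did not pass after correction over the 10 ratio tests. The Hsp90 alpha to beta ratio differed by -0.16 (exact permutation adjusted p 0.338).

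Of the chaperones outside the group, 0 were called after LPS in any list. All 7 mitochondrial chaperones had negative estimates with a median of -0.34, among them Hspd1 (Hsp60) at -0.67 (SE 0.16, edgeR adjusted p 0.248), a gene that enters below through its pattern. Of 14 Hsp90 cochaperones 10 were negative (median -0.21), of 10 endoplasmic reticulum chaperones 6 (median -0.16), and of 8 TRiC subunits 7 (median -0.12). Immediate early genes had a median of -0.03, with 6 of 19 lower and 0 higher at an unadjusted p under 0.05, and their summed CPM overlapped, 36240 to 44252 after LPS and 37803 to 52328 after saline. The share of reads outside genes was 32.3% ± 8.4 and 31.3% ± 6.1 (SD, n = 5 each). Microglial markers summed to 23914 to 29424 CPM after LPS and 25294 to 28516 CPM after saline, and neutrophil markers to 115 to 319 and 98.3 to 301 CPM. All 5 monocyte markers (median 1.04, summed CPM 9.56 to 59.3 after LPS and 16 to 37.1 after saline) and all 6 astrocyte markers (median 0.30, 255 to 373 and 212 to 398 CPM) had higher estimates after LPS. All 6 oligodendrocyte markers (median -0.40, 213 to 330 and 251 to 336 CPM) had lower estimates, and 0 markers of these 3 lists were called. The groups overlapped in each of these sums, whose part in the lower chaperone levels was not tested.

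Beside the drinking cohort the saline libraries differed by gene. For Hsp90aa1 and Bag3, 4 of 5 saline libraries lay above every water microglial library, for Hsph1 3 of 5, for Dnajb1 2 of 5 and for each of the other 6 genes 1 of 5. Above every ethanol microglial library lay 3 of 5 for Hsp90aa1, 2 of 5 for Bag3 and Hspa1b, 1 of 5 for 6 genes and 0 of 5 for Dnaja1. The 5 LPS libraries lay inside the range of the water microglia for 8 of the 10 genes, all but Dnajb1 and Hspb1. Mean Hsp90aa1 was 864 ± 137 CPM after saline (SD, n = 5), 521 ± 100.8 after LPS, 589 ± 153 in water microglia (SD, n = 8) and 641 ± 124 in ethanol microglia (SD, n = 10). The cohorts were not compared by a test: injection, cohort and library set cannot be told apart, since the position numbers of the deposited libraries place all 10 injected mice in a set with only 3 mice of the drinking cohort.

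**Figure D4:**
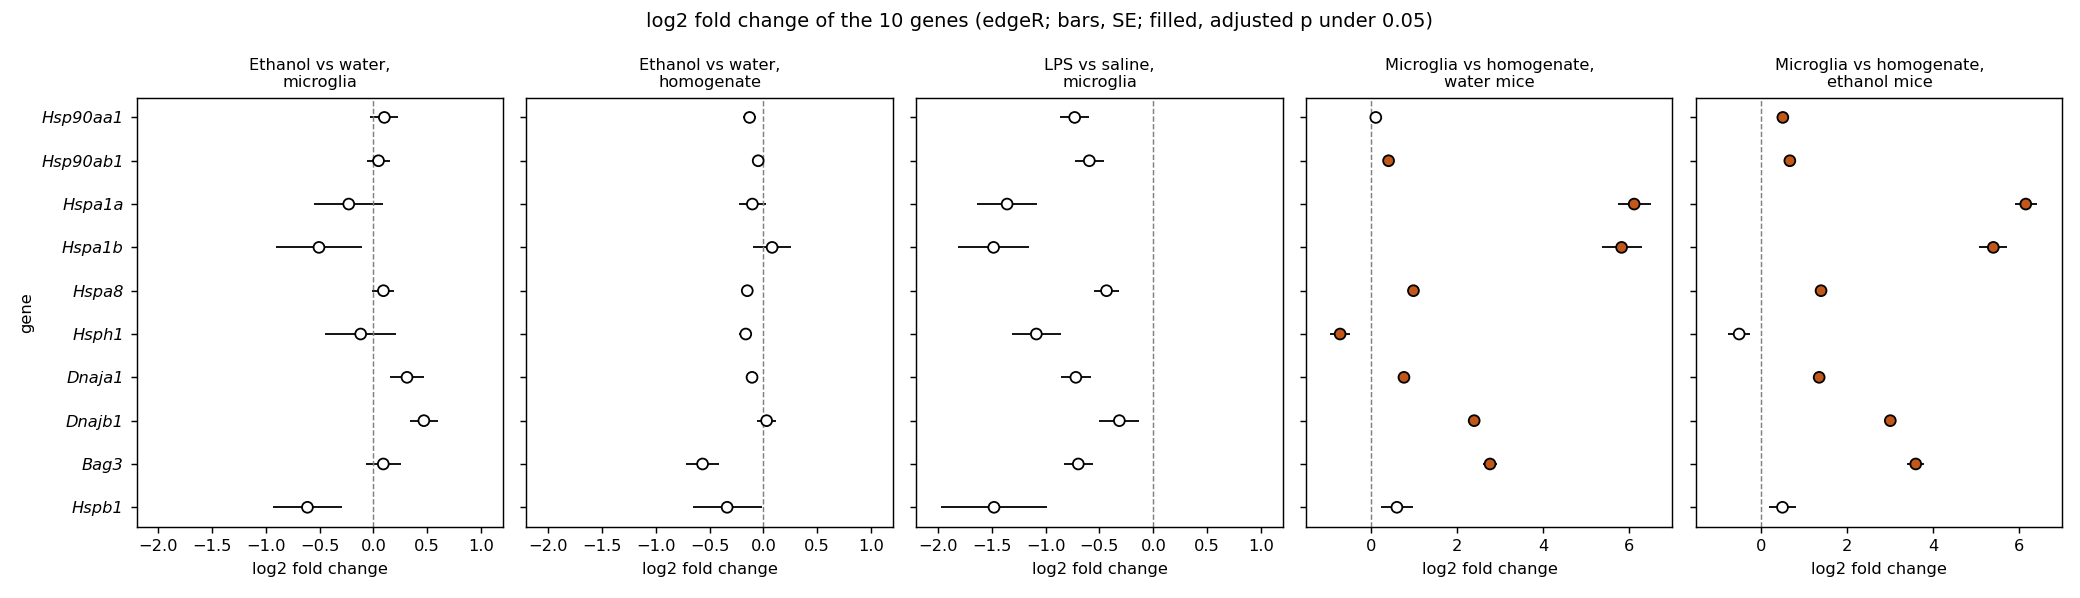
log2 fold change with its SE for each gene in 5 comparisons; filled points are called at an edgeR adjusted p under 0.05, and the 2 right panels have a wider scale. All 10 points lie left of 0 after LPS, and the filled points are all in the comparisons of microglia with homogenate.

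In microglia of ethanol mice 0 of the 10 genes were called (0.00756% of 13223 genes, 1 gene, were), and 1 of 10 had an unadjusted p under 0.05, against 7.65% of all genes. This gene was Dnajb1, which had 178, 327 and 411 CPM in the 8 water libraries and 330, 421 and 603 CPM in the 10 ethanol libraries. The upper part of the water range overlapped the lower part of the ethanol range. The log2 fold change was 0.47 (SE 0.13, edgeR adjusted p 0.283). It lay between 0.41 and 0.53 in the 18 fits that each left out a library, and between 0.24 and 0.51 over the 11 other alternatives. Dnaja1, the second J-domain cofactor, was at 0.31 (SE 0.16), Hspa1b at -0.51 (SE 0.40), Hspa1a at -0.23 (SE 0.32) and Hspb1 at -0.61 (SE 0.32), all with edgeR adjusted p of 0.683 or more. Hsp90aa1, Hsp90ab1, Hspa8, Hsph1 and Bag3 were between -0.12 and 0.10, and for these 5 the sign changed in at least 1 alternative; that of Dnaja1 changed within the second set of position numbers (-0.09). The ranges of Hspa1b were 98.6 to 1230 CPM in water and 144 to 966 CPM in ethanol microglia. Beside these values, summed neutrophil markers were 41.5 to 15672 CPM in water and 112 to 682 CPM in ethanol microglia. At an unadjusted edgeR p under 0.05, 4 of 6 oligodendrocyte markers and 13 of 19 immediate early genes (median 0.25) were higher. By the same rule all 8 neutrophil markers, 4 of 5 monocyte markers (median -2.16) and 3 of 8 border macrophage markers (median -0.26) were lower. The part of these markers and genes was not tested.

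In homogenate 0 of 10 genes were called, beside 0.808% of 15215 genes (93 higher and 30 lower), and 4 of 10 were lower at an unadjusted p under 0.05, against 7.44% of all genes. Bag3 had 10.2, 12.98 and 24.5 CPM in water and 6.84, 8.94 and 13.3 CPM in ethanol homogenates, -0.56 (SE 0.15, edgeR adjusted p 0.0807). Hspa8 had 1013, 1085 and 1155 CPM in water and 833, 931 and 1085 CPM in ethanol homogenates, -0.15 (SE 0.05, edgeR adjusted p 0.13). Hsph1 and Dnaja1 were at -0.16 (SE 0.06) and -0.11 (SE 0.05). The ranges of these 4 genes overlapped, and DESeq2 called Bag3 (-0.57, adjusted p 0.0215) and Hspa8 (-0.15, adjusted p 0.0348), as it called 1.00% of 19876 genes lower. The share of reads outside genes was 27.1% ± 4.2 in ethanol and 22.5% ± 1.9 in water homogenates. With it as a covariate 0 genes were called by edgeR. Bag3 lay between -0.60 and -0.54 over the 10 alternatives, and between -0.64 and -0.44 over the 19 fits that each left out a library. All 6 oligodendrocyte and all 8 border macrophage markers had lower estimates in ethanol homogenates (medians -0.72 and -0.59), 0 of them at an unadjusted p under 0.05. So did all 6 endothelial, 7 of 8 neuronal and 5 of 6 astrocyte markers. Of 7 microglial markers 6 had higher estimates (median 0.14), 4 at an unadjusted p under 0.05. None of these markers was called. Median depth was 35.2 M reads in ethanol and 52.7 M in water homogenates. The part of cell types and depth was not tested.

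Among the other chaperones in homogenate, Fkbp4, an Hsp90 cochaperone of steroid receptors, fell by 0.24 on the log2 scale (SE 0.06, edgeR adjusted p 0.049), and Hspa2, a Hsp70 family member, rose by 0.34 (SE 0.06, edgeR adjusted p 0.02). In the 8 other chaperone and regulator lists these 2 were the calls made. Of 20 immediate early genes 3 were called higher, among them Npas4 at 1.68 (SE 0.27) and Btg2 at 1.51 (SE 0.29). All 8 TRiC subunits and 11 of 12 other J-domain proteins had negative estimates, with medians of -0.06 each, against -0.0083 for all genes.

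Whether ethanol acted on microglia and homogenate differently was tested by the interaction of treatment and preparation, in which 0.342% of 15797 genes and 0 of the 10 were called. The largest estimates were Bag3 at 0.69 (SE 0.24, edgeR adjusted p 0.183), Dnajb1 at 0.47 (SE 0.17, adjusted p 0.196), Dnaja1 at 0.45 (SE 0.18, adjusted p 0.272) and Hspa8 at 0.27 (SE 0.12, adjusted p 0.319), all positive. With mouse as a block 0 genes of the table were called.

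Within groups the 10 genes varied together in microglia. After group means were removed, all 45 gene pairs were positively correlated over the 28 microglial libraries (Pearson r of log2(CPM + 1), median 0.82, range 0.33 to 0.98), where the median over all pairs of 12142 genes was 0.0425. The highest was Hspa1a with Hspa1b at 0.98, a pair that shares much of its coding sequence, and the next Hspa8 with Hsp90ab1 at 0.95. Hspb1 was the loosest, with a median r of 0.49 with the others, then Bag3 with 0.68. Without the microglia of water mice 19 and 24 the median was 0.78, and with TMM-scaled CPM 0.80. All points share their library, and the mean level of the 10 genes had r = -0.24 with the share of reads outside genes, 0.36 with log2 depth and 0.21 with the summed immediate early genes; without those 2 libraries these were 0.05, 0.11 and 0.06.

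The same libraries were low or high across genes. Averaged over the 10 genes, the rank among 28 microglial libraries was lowest for water mice 24 (3.3) and 15 (4.1), LPS mouse 33 (4.4) and LPS mouse 51 (6.0), and highest for saline mouse 38 (27.4), ethanol mouse 3 (24.9) and water mouse 25 (23.1). In water microglia the spread was widest in Hspa1b. The highest library exceeded the lowest 12.47-fold for Hspa1b and 6.4-fold for Hspa1a in water microglia, and 2.1-fold for both Hspa8 and Hsp90ab1. In water homogenate the ratio was 5.1 for Hspb1, 2.8 for Hspa1b and 1.1 for Hspa8. In ethanol microglia it was 7.9 for Hspb1, 6.7 for Hspa1b, 6.2 for Hsph1 and 4.4 for Hspa1a, and after saline 8.9 for Hspb1 and 4.1 for Hspa1b.

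**Figure D5:**
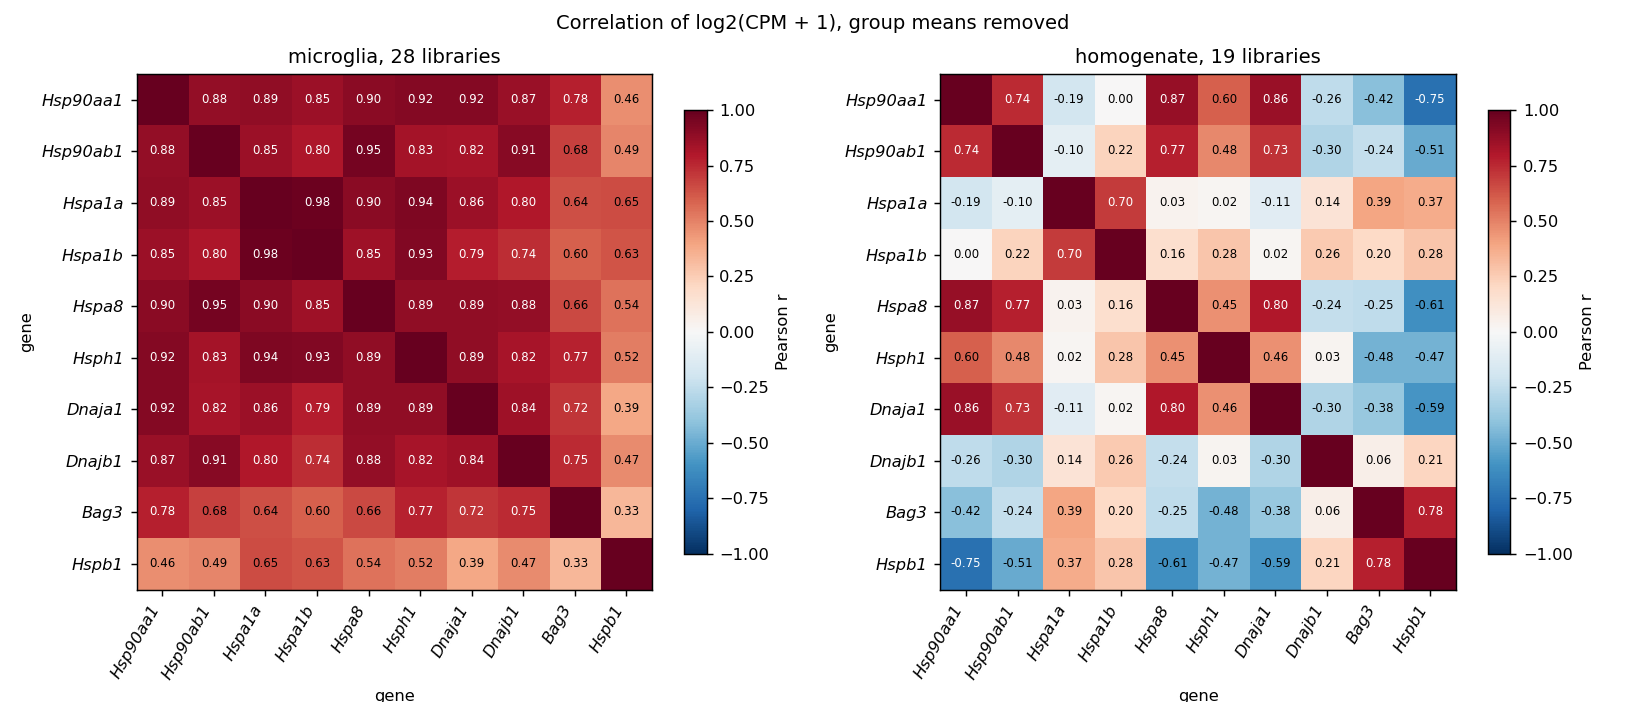
Pearson r between the 10 genes with group means removed, in 28 microglial and 19 homogenate libraries. The microglial panel is positive throughout, from 0.33 to 0.98, whereas the homogenate panel ranges from -0.75 to 0.87.

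In homogenate the same 45 pairs had a median r of 0.06 over 19 libraries, with 28 positive, against 0.0218 for all 13786 genes. Hsp90aa1, Hspa8 and Dnaja1 were tied at 0.80 to 0.87, with Hsp90ab1 at 0.77 to Hspa8 and 0.745 to Hsp90aa1. Bag3 and Hspb1 were tied at 0.78, and Hspb1 ran against Hsp90aa1 at -0.75. The water homogenate of mouse 25 was highest for both Bag3 (24.5 CPM) and Hspb1 (30.2 CPM); it also had the highest summed CPM of border macrophage markers (210, against 38.7 to 100.5 in the other homogenates) and of endothelial markers (718, against 234 to 672), whose part in these values was not tested.

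The genes outside the group whose pattern was most like that of a member were found over the same libraries. In microglia Hspa1b was followed most closely by Hspd1 (r = 0.84), Hmox1 (heme oxygenase 1, 0.79) and Irgm1 (an immunity-related GTPase, 0.78). Hsp90aa1 was followed by Hspd1 (0.83), Stip1 (Hop, the cochaperone that joins Hsp70 to Hsp90, 0.76) and Zcchc7 (0.75), and Hspa8 by Stip1 (0.89), Hsp90b1 (0.82) and Hspd1 (0.81). The closest of all 12142 genes to Hspa1b, Hsp90aa1 and Hspa8 were other members, 4, 7 and 5 of them before any gene outside the group. Hspb1 in microglia was led by Tango2 (0.75), Vkorc1 and Snapc4 (0.74 each).

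In the homogenates Hspa8 was followed by Stip1 (0.94), Hspa4 (an Hsp110 protein, 0.91) and Zrsr2 (0.91), and Hsp90aa1 by Pafah1b1 (0.95), Larp6 (0.92) and Zrsr2 (0.91). Hspb1 was followed by Lamb2 (a laminin of basement membranes), Ahnak and Mmrn2 (an endothelial matrix protein), at 0.97, 0.97 and 0.96. Hspa1b was followed by Slx4ip (0.82), Zfp9 (0.78) and Sipa1l3 (0.75), with Hspa1a at 0.70 in ninth place.

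Each drinking mouse gave both preparations, so a gene's level in homogenate was set against its level in microglia of the same mouse, in 18 mice with the treatment means removed. Hspa1a had r = 0.60 (permutation p 0.00908, adjusted p 0.0461 over 10 genes; rho 0.61, adjusted p 0.0387) and Bag3 r = 0.59 (permutation p 0.00922, adjusted p 0.0461; rho 0.63, adjusted p 0.0387). Hspa1b was at 0.45 (adjusted permutation p 0.21), and the other 7 genes were between -0.22 and 0.22. Without the 2 mice farthest from the median in homogenate the values were 0.48 for Hspa1a and 0.41 for Bag3 (adjusted permutation p 0.562 each), with rho at 0.53 for both (adjusted p 0.182 each). Without water mice 19 and 24, r was 0.56 and 0.54 (adjusted permutation p 0.117 each), so neither relation passed once either pair of mice was left out. Within the first set of position numbers Hspa1a was at 0.49 and Bag3 at 0.68 in 8 mice, and within the second at 0.53 and 0.83 in 7 mice, with the smallest adjusted permutation p at 0.0998. Dnaja1 was at -0.79 in those 7 mice, with the same adjusted p.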

How the data were processed

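The authors deposited raw read counts per gene symbol, 1 table for each of 47 libraries. STAR, HTSeq and DESeq2 and the build mm10 are named in the submitters' processing notes; no settings or annotation are stated there. Per the labels' protocols, libraries were poly(A)-selected, strand-marking and read as 75-base pairs. Tallies of reads outside genes, ambiguous or multiply placed were left out of library sizes; reads outside genes were 19.9% to 56.1%. CPM are counts per 1000000 reads assigned to genes. Each comparison used only its own groups, in edgeR 4.0.16 (TMM, filterByExpr, quasi-likelihood F-test, Benjamini-Hochberg adjusted p under 0.05 over all genes tested) under R 4.3.3; the SE is the log2 fold change over the root of F. Alternatives were DESeq2 1.42.0, limma 3.58.1 (voom), other scalings and filters, covariates, mouse as block, and left-out libraries; the fits were tested on simulated data. Ratios, correlations and permutation tests (100000 resamples, or exact) used SciPy 1.17.1. Levels per kb used exon unions of GENCODE M21, whose GRCm38 coordinates are the gene positions given.

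Homogenate and microglia with 1 number came from 1 mouse, by the protocol. Over 18 such pairs the deviations from the group means correlated at a median of 0.04 (range -0.03 to 0.13). In 4 water homogenates (21, 24, 25 and 26) the extraction text is that of microglia, whereas title, cell type and markers are those of homogenate. Microglia of water mouse 26 were not analysed here. Numbers in the labels mark separate mice. In no group were 2 libraries as alike as sampling noise allows (lowest chi-square per degree of freedom 13.2). Position numbers attached to the deposited tables form 3 sets, tried as a possible batch; what they stand for is not given.

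The 10 genes and the lists were chosen with earlier results of these data known. Other genes were named as the up to 2 called genes of smallest p per list and comparison, and the 3 of nearest pattern (mean of at least 1 CPM) for Hspa1b, Hsp90aa1, Hspa8 and Hspb1. Hsf1, Hspb3, and Hspd1 after LPS, were named after their values were seen. The same-mouse values within sets of position numbers, and the correlations between the 10 genes with TMM scaling or without water mice 19 and 24, were added after seeing the data.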

Additional observations from a re-analysis of the deposited data

Results flagged for a closer look

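The 10 genes in 6 groups gave 60 values to screen for a library far from the others of its group, and 4 were found; chance flags about 1 in 20. In water homogenate, mouse 25 stood apart for Bag3 (24.45 CPM, next 16.28) and for Hspb1 (30.22 CPM, next 12.81). The same library had the highest summed border macrophage markers (210 CPM) and endothelial markers (718 CPM) of the homogenates, and their part in these levels was not tested. Without it the ethanol estimate of Hspb1 in homogenate was 0.05 instead of -0.34. After saline, mouse 38 stood apart for Hsp90ab1 (2568 CPM, next 1803) and for Hspa8 (2882 CPM, next 2202). It had the highest mean rank over the 10 genes (27.4 of 28).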

How the results depend on the processing

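Counts of genes called depended on the tool and the libraries. In ethanol microglia (1 gene in the main analysis) DESeq2 called 50, voom 8, and the first and second sets of position numbers alone 0 and 4. In ethanol homogenate (123) DESeq2 called 526, with 2 of the 10 genes, no filter 62, and the outside-gene covariate and either set alone 0. After LPS (2) DESeq2 called 73, voom 1 and no filter 17, with 6 of the 10 genes under DESeq2 and under no filter. In the interaction (54) DESeq2 called 270, voom 25, the 1 CPM filter and the set covariate 35 each, mouse as block 0, and leaving out water microglia 19 and 24 gave 85.

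Leaving out 1 library at a time gave 0 to 7 genes in ethanol microglia, 39 (without water homogenate 18) to 275 (without ethanol homogenate 1) in ethanol homogenate, 0 to 6 after LPS, 22 to 132 in the interaction, 12420 to 12868 for the preparations in water mice and 12294 to 12564 in ethanol mice. Of the 10 genes it gave 8 to 9 in both preparation comparisons and 0 elsewhere.

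Signs that turned belonged to uncalled estimates. In ethanol microglia within the first set Hsp90ab1 was at -0.0026, and within the second Hsp90aa1 at -0.18, Hsp90ab1 at -0.0487, Hspa8 at -0.0224, Dnaja1 at -0.0916 and Bag3 at -0.27. Without water microglia 19 and 24, Hsp90aa1 was at -0.018, Hsp90ab1 at -0.066, Hspa8 at -0.0083 and Bag3 at -0.0295. In ethanol homogenate Hsp90ab1 was at 0.0266 and Hspa1b at -0.0302 in the first set, Hspa1b at -0.0115 in the second and at -0.0013 when summed with Hspa1a. In the interaction Hsph1 was at -0.10 with voom, -0.0018 with the replicate block and -0.19 without water microglia 19 and 24, Hspa1a at 0.0553 with the block and Hsp90ab1 at -0.0375 without those 2. With 1 library left out, turned signs lay in ranges of -0.0018 to 0.16 (Bag3), -0.0104 to 0.0824 (Hsp90ab1) and -0.35 to 0.0259 (Hsph1) in ethanol microglia, -0.0132 to 0.0777 (Dnajb1) and -0.52 to 0.0482 (Hspb1) in ethanol homogenate, and -0.15 to 0.22 (Hsph1) and -0.24 to 0.0447 (Hspa1a) in the interaction.

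Same-mouse relations past the threshold numbered 2 with CPM, 1 with TMM-scaled CPM and 0 without the 2 farthest mice, without water mice 19 and 24, or within either set. Turned signs there were Dnaja1 at 0.0522 with TMM, Hsp90aa1 at -0.12 and Dnajb1 at -0.053 without the farthest mice, Dnaja1 at 0.23 and Dnajb1 at -0.088 without mice 19 and 24, Hspa8 at 0.18 and Hspb1 at -0.0455 in the first set, and Hsp90aa1 at -0.39 and Hsph1 at 0.13 in the second.

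Among the 10 genes, mouse as block changed the call of 1, Hsph1 in the preparation comparison of ethanol mice. The cause of these shifts was not tested. Intervals and calls cover the spread between these libraries, and depth was lowest, 9.72 M reads, in water microglia 24.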
